A study of Caenorhabditis elegans with 33 samples.

Results

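Small RNAs of late larval and gravid adult Caenorhabditis elegans were compared in 9 of the 33 samples of a series on ALG-5, an Argonaute protein of the nematode. The 9 are all the small RNA libraries of animals that were not mutants and had not been through immunoprecipitation. They were 2 libraries of L4 larvae, the last larval stage, collected 49 h after L1 larvae had been synchronised, and 7 libraries of gravid adults collected at 68 h. The same 4 tables gave the miRNAs, the 21U piRNAs, the siRNAs of CSR-1 target genes and the siRNAs of Mutator target genes in each library, with 368, 15366, 3639 and 2434 features.

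The L4 libraries were wild type (N2) and the input of a GFP::ALG-5 strain, in which the alg-5 gene itself carries GFP::3xFLAG, an allele on I that the labels name ram-1 and that also holds a loxP site. The adult libraries were wild type (N2) from experiments 1, 2 and 3, called wild type adult 1, 2 and 3 here, and 4 inputs of tagged strains. The HA::ALG-1 strain had an alg-1::HA::alg-1 transgene on IV in alg-1(gk214) X, the HA::ALG-2 strain an alg-2::HA::alg-2 transgene on IV in alg-2(ok304) II, and the HA::ALG-5 strain an alg-5::3xHA::alg-5 transgene on II in alg-5(tm1163) I. The ALG-1::HA::ALG-2 strain carried alg-1::HA::alg-2 on IV in alg-1(gk214) X, and so had HA::ALG-2 in place of ALG-1. Inputs are lysates set aside before the immunoprecipitation, and all animals were grown on OP50 bacteria. Whether the libraries came from separate cultures is not stated beyond the experiment number, so p-values measure the spread between these libraries, part of which may be technical.

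Both L4 libraries came from experiment 4, and the adults from experiments 1 (wild type adult 1 and the HA::ALG-1, HA::ALG-2 and ALG-1::HA::ALG-2 inputs), 2 (wild type adult 2) and 3 (wild type adult 3 and the HA::ALG-5 input). Stage and experiment therefore cannot be told apart in any comparison between the stages. Levels are in RPM, reads scaled to a fixed library total. Depth, recovered from the step between low values, was lowest for wild type adult 2 (1622092 reads) and highest for the GFP::ALG-5 input (24518714 reads), and both L4 libraries were deeper than every adult library. A value of 0, taken as at most 3 reads, allows up to 0.122 RPM in the GFP::ALG-5 input and up to 1.85 RPM in wild type adult 2, for counting error only. The animals were processed whole, so a lower level can mean fewer cells of a type or less RNA per cell, and these cannot be told apart.

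MicroRNAs are cut from hairpins, load into the Argonautes ALG-1, ALG-2 and ALG-5 and repress mRNAs that pair with their seed; the worm's let-7 and lin-4 families set the timing of larval stages, and the mir-35 family is made in oocytes and embryos. The 21U-RNAs are the piRNAs of the germline and guide the Argonaute PRG-1. CSR-1 siRNAs are antisense to germline-expressed genes and are thought to license them, while Mutator siRNAs depend on the mutator foci of the germline and are antisense to silenced genes, pseudogenes and transposons.

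The balance between the 4 classes differed between the stages. The miRNA table summed to 310374 RPM in the GFP::ALG-5 input and 271645 RPM in wild type L4, against 130135 to 191222 RPM in the adults (median 175637), so the L4 sum was 1.73 times the adult one as a ratio of geometric means. Every L4 library lay above every adult library. The 21U piRNAs summed to 10744 and 11389 RPM in L4 and to between 23158 and 36146 RPM in adults (median 29040), 2.58 times as much in adults. CSR-1 siRNAs summed to 59994 and 51462 RPM in L4 and to between 100088 and 202041 RPM in adults, 2.35 times as much. These germline classes were thus below every adult library in both L4 libraries. Mutator siRNAs were closest between the stages, at 346504 and 307271 RPM in L4 against 348647 to 453135 RPM in adults, 1.22 times as much in adults. The exact two-sided permutation test gave p = 0.0556 for each of the 4 classes (adjusted over the 4 classes, 0.0556), which is the smallest p that 2 libraries against 7 can give. As a share of the 4 tables together, the Mutator siRNAs of the stages overlapped (exact permutation test, p = 0.222), while the other 3 classes kept the order. Leaving out 1 library at a time kept the direction of all 4 sums.

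**Figure D1:**
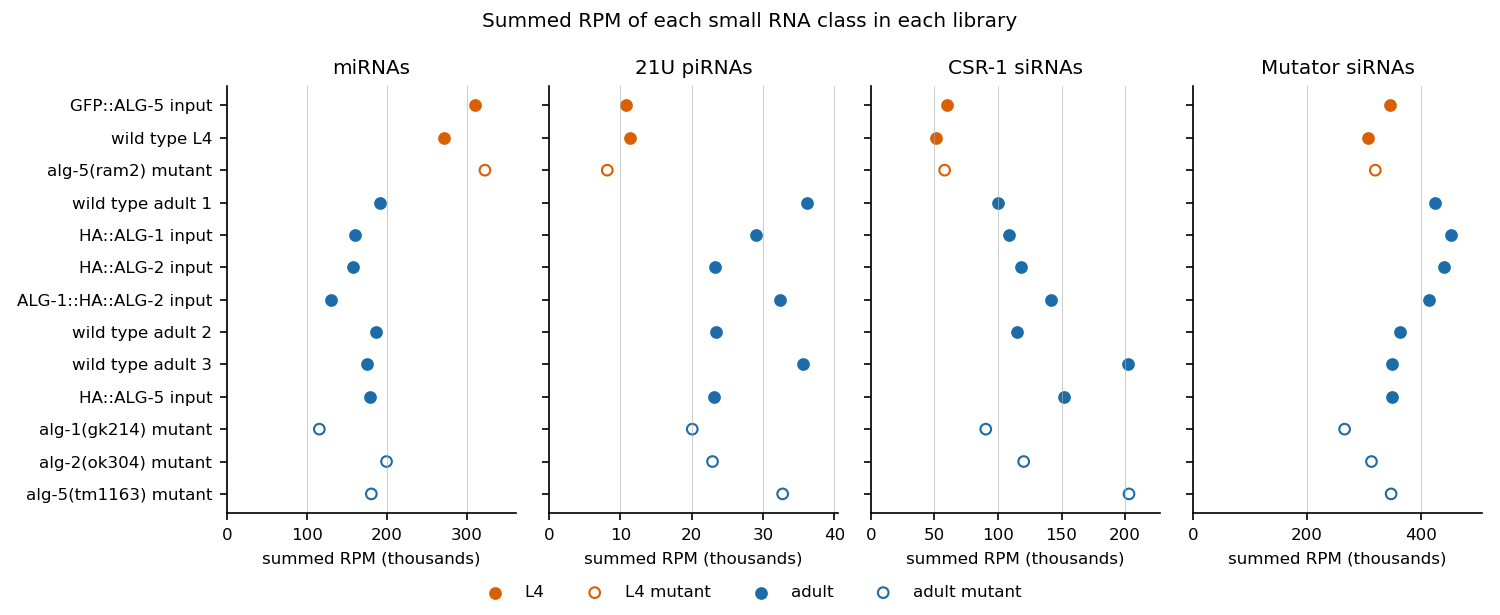
Summed RPM of the 4 small RNA classes (x axis) in each library (rows); filled points are the 2 L4 and 7 adult libraries compared, open points the mutant libraries that no test used. miRNA sums of L4 (271645 and 310374 RPM) lie to the right of all filled adult points, and piRNA and CSR-1 siRNA sums to the left.

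Because these sums differ, an RPM value of a feature moves with its whole class. Each feature was therefore tested on 2 scales, RPM of the whole library and RPM rescaled to the feature's own table, and calls on both are given for each class. A feature was called at an adjusted p (limma with Benjamini-Hochberg adjustment over the table) under 0.05, and differences are L4 minus adult in log2(RPM + 1), which understates the change of low features.

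Of 233 miRNAs tested, 85 were higher in L4 (36.5%) and 26 lower (11.2%). Rescaled to the miRNA table, 34 were higher (14.6%) and 37 lower (15.9%), and 59 were called the same way on both scales. The median difference was 0.74 on the RPM scale and -0.0003 on the other. With experiment as a random effect 59 miRNAs were called, and with wild type libraries alone, 1 L4 against 3 adults, 10.

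The mir-35 family, whose miRNAs are needed in early embryogenesis, was the group with the lowest median in L4 among the miRNA lists. Its 16 tested arms summed to 1923 RPM in the GFP::ALG-5 input and 2156 RPM in wild type L4, and to between 23270 and 42117 RPM in adults. That is 0.62% and 0.79% of all miRNA RPM in L4 and 16.1% to 25.2% in adults. Of the 16 arms, 14 were lower in L4 on both scales and 1 was higher on the RPM scale, with a median of -3.97, against 0.74 for all miRNAs. miR-35-3p stood at 359 and 382 RPM in L4 and at 8927, 8494, 5579, 4811, 7969, 6392 and 6431 RPM in wild type adult 1, the HA::ALG-1, HA::ALG-2 and ALG-1::HA::ALG-2 inputs, wild type adult 2, wild type adult 3 and the HA::ALG-5 input. The stages lie far apart, a difference of -4.19 (SE 0.28, adjusted p = 1.4e-07). miR-39-3p was at 150 and 197 RPM in L4 and 3516 to 6883 RPM in adults (-4.74, SE 0.30, adjusted p = 9.7e-08). The passenger arm of the same hairpin, miR-39-5p, was the lowest by difference in log2(RPM + 1), at 4.85 and 4.92 RPM against 191 to 293 RPM (-5.26, SE 0.30, adjusted p = 5.3e-08). As a ratio of means, miR-40-5p (79.5) and miR-41-5p (60.1) differed more than miR-39-5p (46.4).

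miR-36-3p, miR-37-3p, miR-38-3p, miR-40-3p and miR-41-3p differed by -3.96, -3.52, -3.98, -4.14 and -4.46, and the passenger arms miR-35-5p, miR-36-5p, miR-37-5p, miR-38-5p, miR-40-5p and miR-41-5p by between -5.24 and -2.86. miR-42-3p was the exception in the family. It was at 129 and 106 RPM in L4 and between 14.2 and 81.4 RPM in adults. That is above every adult library (1.95, SE 0.58, adjusted p = 0.017), though it was not called after rescaling to the miRNA table nor with experiment as a random effect (adjusted p = 0.16). Its passenger miR-42-5p was at 1.23 RPM in L4 and 1.01 RPM in adults as means and did not pass (adjusted p = 0.59). All 10 of the largest decreases among miRNAs of at least 10 RPM in 1 stage are arms of this family.

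The let-7 family, whose members let-7, miR-48, miR-84 and miR-241 repress early-stage genes in late larvae, had calls on its 3p arms and on miR-793 and miR-795-5p, but on no 5p arm of those 4 hairpins. Of 12 tested arms (13 in the table), 6 were higher in L4 and 0 lower (median 0.89, against 0.74 for all miRNAs), and 1 was higher after rescaling. let-7-5p, the arm that acts as the guide, was at 326 and 462 RPM in L4 and at 321, 282, 323, 273, 30.2, 535 and 791 RPM in the adults in the order given for miR-35-3p, so the stages overlap (0.52, SE 0.87, adjusted p = 0.63). Its passenger let-7-3p was at 124 and 157 RPM in L4 and at 1.39, 1.55, 2.18, 5.79, 3.70, 1.31 and 9.73 RPM in adults. No adult library came near L4 (5.15, SE 0.57, adjusted p = 1.3e-05), and the call held on both scales and with experiment as a random effect. The other 5p arms miR-48-5p, miR-84-5p and miR-241-5p did not pass (adjusted p 0.42, 0.47 and 0.61). The 3p arms miR-48-3p, miR-84-3p and miR-241-3p were higher in L4 by 1.69, 1.48 and 2.05 on the RPM scale only. For mir-241 the 3p arm was the abundant one, with 98.0% and 96.9% of the hairpin's RPM in L4 and 83.5% to 96.8% in adults. As means, miR-241-3p was at 203 RPM in L4 and 51.3 RPM in adults, and miR-241-5p at 5.20 and 4.46 RPM. Of the relatives miR-793, miR-794 and miR-795, miR-793 (1.18) and miR-795-5p (1.97) were higher on the RPM scale only, and lost their call with experiment as a random effect (adjusted p = 0.2 and 0.11), as miR-84-3p did (adjusted p = 0.076), while miR-795-3p (0.49) and miR-794-5p (0.06) did not pass.

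lin-4 and its homologue miR-237 had 3 of 4 arms higher in L4 on the RPM scale and 1, lin-4-3p, on both. lin-4-3p was at 943 and 710 RPM in L4 and at 50.8 to 229 RPM in adults (3.25, SE 0.53, adjusted p = 0.00035). The guide lin-4-5p was at 2261 and 1659 RPM in L4, and at 2374 RPM in wild type adult 2 against 489 to 833 RPM in the other 6 adults. That library lay above both L4 libraries (1.40, SE 0.50, adjusted p = 0.036). miR-237-5p had the same shape, with 3078 and 2509 RPM in L4, 2927 RPM in wild type adult 2 and 812 to 1495 RPM in the others (1.01, SE 0.38, adjusted p = 0.045), and miR-237-3p did not pass (0.45, adjusted p = 0.53). Both guides lost their call with experiment as a random effect (adjusted p = 0.2 for lin-4-5p and 0.21 for miR-237-5p).

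Read as the share of a hairpin's RPM that lies on its 3p arm, the stages overlapped for most hairpins and did not for a sizeable minority. Many in that minority differed little, such as mir-2 (0.22 points between the stage means) and mir-61 (3.06 points). The hairpins given next are mainly those with larger differences. The 3p arm made up 27.5% and 25.4% of let-7 RPM in L4 and 0.2% to 10.9% in adults. For lin-4 it made up 29.4% and 30.0% in L4 and 8.5% to 18.2% in adults, and for mir-84, another let-7 family hairpin, 16.2% and 14.1% against 4.3% to 13.6%. For mir-230 the values were 49.8% and 50.6% against 12.5% to 42.4%. In the other direction, the 3p arm made up 30.1% and 17.4% of mir-85 RPM in L4 and 63.3% to 94.3% in adults. For mir-5592 it made up 50.7% and 50.8% in L4 and 76.5% to 86.3% in adults. The muscle hairpin mir-1 had 16.5% and 25.8% on its 3p arm in L4 and 26.9% to 83.7% in adults, the adult libraries being spread more widely than the gap between the stages. These shares are descriptions, and no test was made of them.

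The mir-51 family, the worm's relatives of miR-100, was more abundant in L4. It summed to 77241 and 58845 RPM in L4 and to between 10355 and 30375 RPM in adults, which is 24.9% and 21.7% of miRNA RPM against 6.17% to 16.3%. Of 12 tested arms, 7 were higher in L4 and 1, the passenger miR-51-3p, lower (median 1.23), and 4 were higher after rescaling. miR-52-5p was at 45545 and 35826 RPM in L4 and at 16940 RPM in wild type adult 2 against 4095 to 6850 RPM in the other 6 adults (2.81, SE 0.46, adjusted p = 0.00035). miR-56-3p (2.55), miR-53-5p (2.48) and miR-54-3p (1.80) were called on both scales as well. The other seed families had shares of calls near or below the 36.5% of all miRNAs higher on the RPM scale. The mir-58 (bantam) family had 2 of 9 tested arms higher on the RPM scale and 0 on the other, where 2 were lower. Its most abundant member miR-58-3p was at 27379 and 27323 RPM in L4 and 11454 to 22168 RPM in adults (0.79, adjusted p = 0.032). Its call was lost with experiment as a random effect (adjusted p = 0.16), and its difference after rescaling was -0.003. The mir-64 family had 2 of 8 tested arms higher, with miR-65-3p (1.86) on both scales. The mir-2 family had 2 of 7 higher, with miR-2-3p at 12952 and 9981 RPM against 1826 to 5248 RPM (1.96, adjusted p = 0.001). The mir-44 family had 3 of 7 higher, miR-247-3p on both scales, while miR-44-3p and miR-45-3p are near-identical in every library and share their reads. The mir-72 family had 0 of 6 called on the RPM scale, with a median of 0.31.

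**Figure D2:**
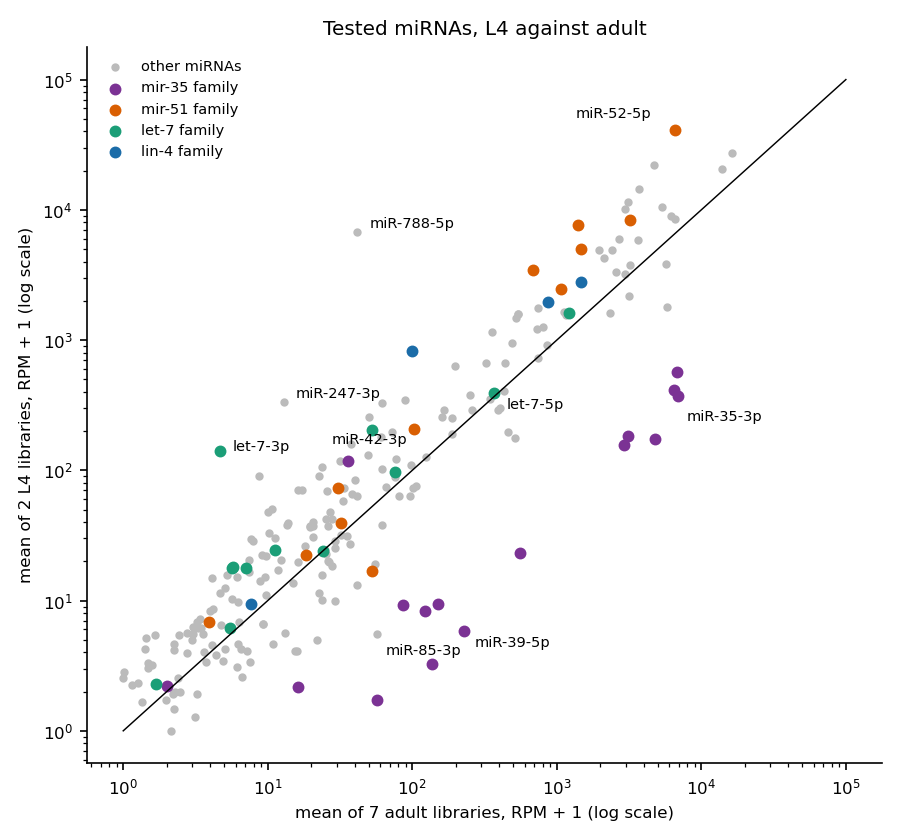
Mean RPM + 1 of each tested miRNA in the 7 adult libraries (x axis, log scale) and the 2 L4 libraries (y axis, log scale), with the line of equality; families are coloured. The mir-35 family lies below the line except miR-42 arms, miR-788-5p and let-7-3p lie far above it, and most other miRNAs lie slightly above.

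The miRNA with the largest difference was miR-788-5p. It was at 8158 and 5236 RPM in L4 and at 42.6, 31.7, 49.5, 45.7, 24.0, 25.6 and 62.6 RPM in the adults in the order given for miR-35-3p (7.38, SE 0.40, adjusted p = 5.3e-08). The stages are far apart, and the alg-5(ram2) L4 mutant library, which no test used, was at 8896 RPM. miR-247-3p was at 384 and 278 RPM against 4.93 to 21.03 RPM (4.77, SE 0.47, adjusted p = 4.4e-06), and miR-230-3p at 107 and 72.3 RPM against 3.08 to 12.5 RPM (3.44, SE 0.46, adjusted p = 7.0e-05). miR-791-3p was higher by 2.56 on the RPM scale only (adjusted p = 0.0098, and 0.088 with experiment as a random effect).

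Of 7 tested arms of miRNAs made in single tissues, 5 were higher and 0 lower on the RPM scale, where 36.5% of all miRNAs were higher. After rescaling 1 was higher, a share like the 14.6% of all miRNAs. miR-124-3p, made in ciliated sensory neurons, was at 382 and 269 RPM in L4 and 31.8 to 110 RPM in adults (2.49, SE 0.46, adjusted p = 0.00081). It was called on both scales, while its passenger miR-124-5p (1.13) and the glial miR-228-5p (1.32) and miR-228-3p (1.55) were called on the RPM scale only, and not with experiment as a random effect (adjusted p = 0.18, 0.11 and 0.085). The muscle miRNA miR-1-3p did not pass (-1.103, adjusted p = 0.29), with 12.0 and 23.9 RPM in L4 and 7.40 to 174 RPM in adults. In the list of miRNAs tied to lifespan in adult worms, 2 of 11 tested arms were higher on the RPM scale and 1 lower, against 36.5% and 11.2% of all miRNAs, and 0 were higher and 2 lower after rescaling. miR-246-3p was at 184 and 170 RPM in L4 and 404 to 596 RPM in adults (-1.51, SE 0.27, adjusted p = 0.00081). miR-71-5p was at 187 and 207 RPM in L4 and 226 to 909 RPM in adults, and passed only after rescaling (RPM scale -1.09, adjusted p = 0.056). miR-238-3p (0.96) and miR-34-3p (1.43) were higher on the RPM scale only, and lost their call with experiment as a random effect (adjusted p = 0.1 and 0.2). Outside the mir-35 family and these lists, miR-85-3p was at 4.98 and 4.14 RPM against 11.7 to 121 RPM (-3.13, SE 0.64, adjusted p = 0.0016) and miR-77-3p at 1652 and 1910 RPM against 4508 to 8432 RPM (-1.66, adjusted p = 0.00035). These last 2 were chosen after their values were seen.

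Several of these miRNAs set wild type adult 2 apart from the other adults, on the side of L4: miR-52-5p, miR-53-5p, miR-56-3p, miR-791-3p, lin-4-5p, miR-237-5p, miR-228-5p and miR-34-3p. It was the shallowest of the 9 libraries and the only one of them from experiment 2. In the same library let-7-5p (30.2 RPM) and miR-48-5p (252 RPM) were below every other library of the 9. The mir-35 family did not follow, since it summed to 30012 RPM there. Without this library 135 miRNAs were called in place of 111. Its part in the results was not tested beyond that. The adult mutants alg-1(gk214) and alg-2(ok304), also of experiment 2 and used in no test, lay toward L4 for several of these miRNAs. There miR-52-5p was at 18978 and 28437 RPM and miR-53-5p at 1759 and 2409 RPM. For miR-56-3p, alg-2(ok304) was at 3577 RPM, while alg-1(gk214), at 1351 RPM, was among the adults. The alg-5(tm1163) adults of experiment 3 were at 4196 RPM for miR-52-5p. Genotype differs as well, and these differences were not tested.

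**Figure D3:**
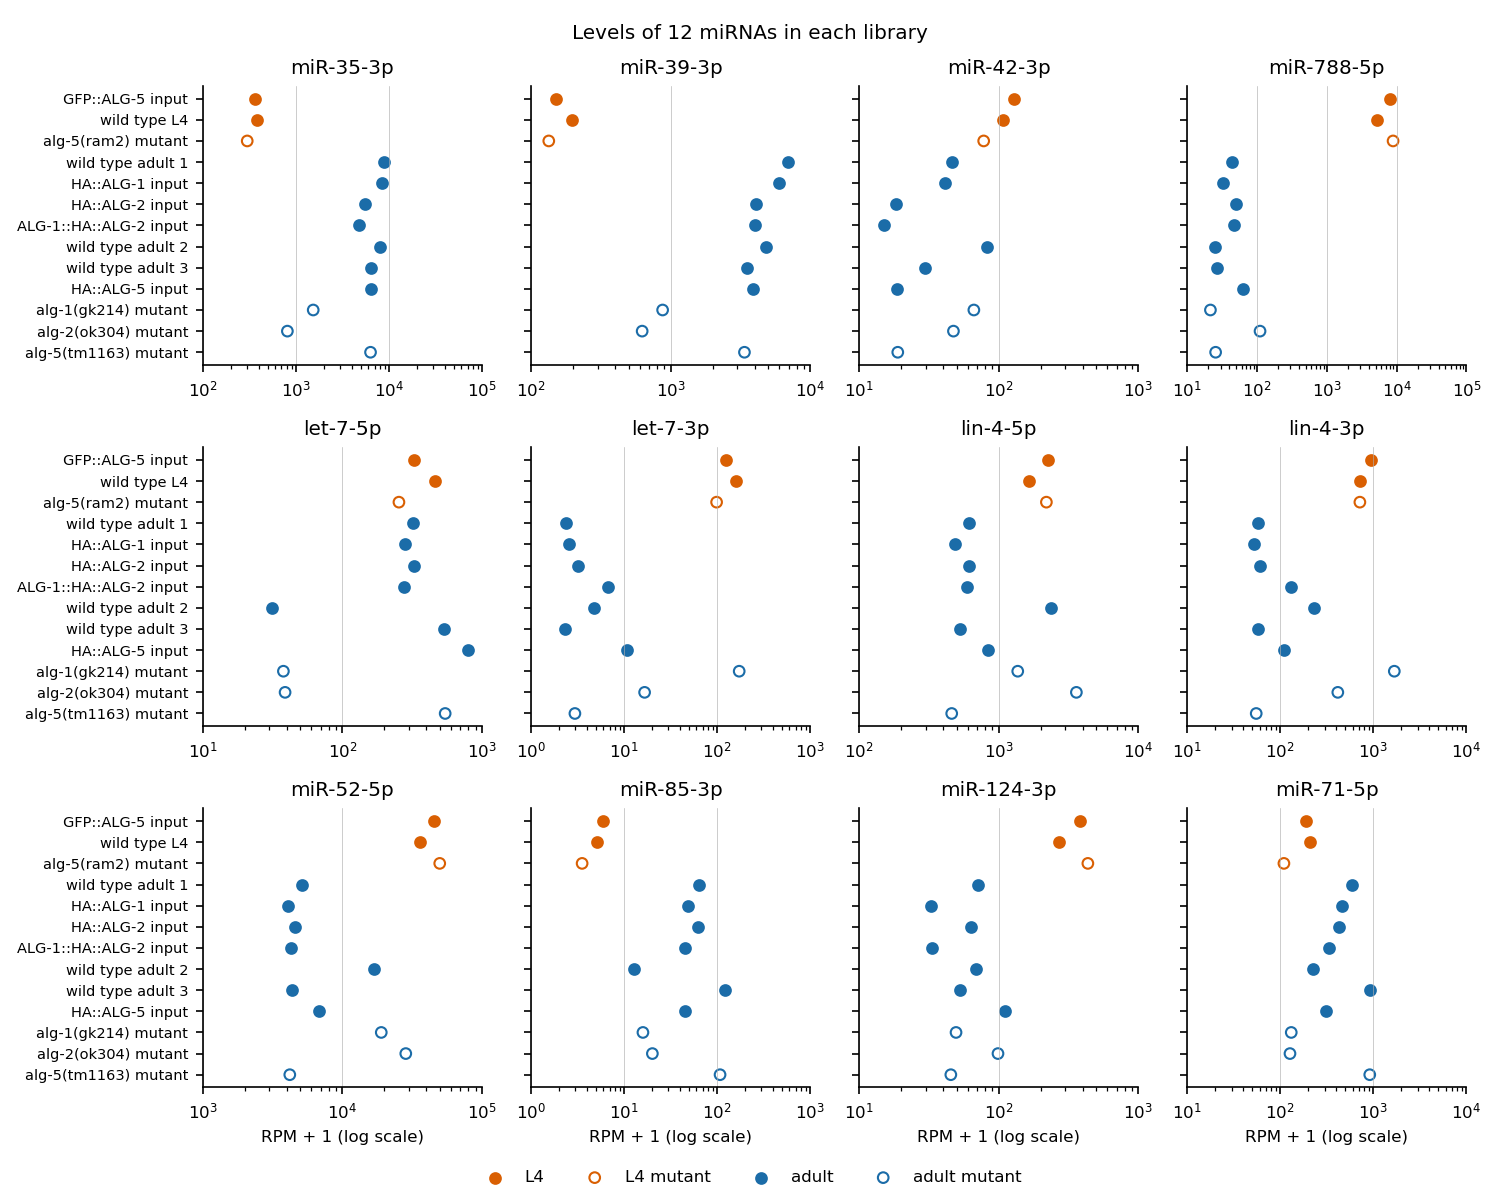
RPM + 1 (x axis, log scale) of 12 miRNAs in each library (rows); filled points are the L4 and adult libraries compared, open points mutant libraries that no test used. miR-788-5p and let-7-3p separate the stages, let-7-5p overlaps, and wild type adult 2 lies among or near the L4 libraries for lin-4-5p and between the stages for miR-52-5p.

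Of 15366 piRNAs in the table, 4250 passed the filter of 1 RPM in 2 of the 9 libraries. Of these, 2224 were lower in L4 (52.3%) and 410 higher (9.65%). Rescaled to the piRNA table, 1612 were lower (37.9%) and 1110 higher (26.1%), and the median difference was -0.89 on the RPM scale and -0.46 on the other. All 410 that were higher in RPM were also higher after rescaling, as were 1611 of those lower. With experiment as a random effect 1240 were called, and 206 with wild type libraries alone.

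The piRNAs that differed most were single loci at moderate levels. 21ur-2841 was at 60.8 and 41.8 RPM in L4 and 4.30 to 9.29 RPM in adults (2.82, SE 0.39, adjusted p = 2.8e-05), and 21ur-4955 (2.63) and 21ur-5217 (2.76) were higher as well. 21ur-7845 was at 1.35 and 1.93 RPM in L4 and 43.1 to 106 RPM in adults (-4.79, SE 0.42, adjusted p = 9.0e-07). 21ur-5166 was at 2.32 and 4.04 RPM against 74.0 to 214 RPM (-4.78), and 21ur-38 at 1.26 and 3.81 RPM against 21.03 to 140 RPM (-4.68). In all, 765 piRNAs were lower by over 2 on the log2 scale and 24 were higher by as much.

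The most abundant piRNAs of the stages overlapped in part. Of the 100 highest by mean RPM in L4 and the 100 highest in adults, 27 were shared. The L4 group made up 28.9% of piRNA RPM in L4 and 12.8% in adults, and the adult group 28.4% in adults and 15.4% in L4; the groups were chosen on these values, and the shares are a description. Of 11896 piRNAs above 0 in any of the 9 libraries, 2872 were above 0 in all 9. There were 17 piRNAs above 0 in both L4 libraries and in no adult one, and 403 above 0 in all adults and in neither L4 library. These 2 counts are not alike, since the first asks for 0 in 7 libraries and the second in 2. The L4 libraries were deeper in total reads, but held 263446 and 247822 piRNA reads against 38057 to 415126 in the adults. At a common 38057 piRNA reads, the number in wild type adult 2, the L4 libraries held 4290 and 4587 distinct piRNAs and the adults 4472 to 5242. The ranges overlap through wild type adult 2 (4472); the other 6 adults were above both L4 libraries.

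CSR-1 siRNAs were lower in L4 across most of their target genes. Of 3614 genes tested, 3016 were lower (83.5%) and 60 higher (1.66%). Rescaled to the CSR-1 siRNA table, 1448 were lower (40.1%) and 702 higher (19.4%), and 214 of these were called in opposite directions on the 2 scales. The median difference was -1.29 on the RPM scale and -0.22 after rescaling, and lists are read against these medians and shares. With experiment as a random effect 2506 genes were called, and 771 with wild type libraries alone.

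siRNAs of genes used in oocytes and early embryos were the lowest among the CSR-1 lists of more than 10 genes. The shorter list of 8 F-box genes had lower medians on both scales (-2.39, and -1.34 after rescaling). Of the 36 oocyte and early embryo genes tested, 34 were lower and 0 higher, with a median of -2.11 against -1.29 for all genes. After rescaling 25 were lower and 2 higher (median -1.25 against -0.22). They summed to 369 and 418 RPM in L4 and to between 1383 and 3300 RPM in adults. egg-5 (R12E2.10), a pseudophosphatase of the egg cortex that acts in the oocyte-to-embryo transition, was at 8.59 and 7.38 RPM in L4 and at 125, 145, 162, 244, 147, 371 and 255 RPM in the adults in the order given for miR-35-3p (-4.44, SE 0.34, adjusted p = 1.4e-11). Its close copy egg-4 (T21E3.1) differed by -4.33, and reads of such copies could be split between them. puf-5 (F54C9.8), a Pumilio-type translational repressor of oocytes, was at 4.98 and 4.78 RPM against 61.9 to 114 RPM (-3.84). rme-2 (T11F8.3), the yolk receptor, was at 9.91 and 10.8 RPM against 93.0 to 253 RPM (-3.70). cey-3 (-0.66) and mbk-2 (-0.35) did not pass on the RPM scale and were higher after rescaling.

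Among the largest CSR-1 decreases outside these lists, mesp-1 (C28C12.2), needed for the meiotic spindle, was at 3.79 and 2.67 RPM in L4 and 64.5 to 214 RPM in adults (-4.56, SE 0.34, adjusted p = 1.3e-11). memi-2 (Y62E10A.14) and memi-3 (H02I12.5), of a family that acts in the second meiotic division of the oocyte, differed by -4.52 and -4.49. inos-1 (VF13D12L.1), for inositol phosphate synthase, differed by -4.49, T01C3.3 by -4.29 and F43G6.7 by -4.27. No adult library overlapped L4 for any of these.

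Of 36 tested genes of germline proliferation and meiosis, 32 were lower and 0 higher on the RPM scale (median -1.33), and 14 were lower and 9 higher after rescaling (median -0.14). Both lie near the table as a whole, with 83.5% lower and a median of -1.29, and 40.1% lower and a median of -0.22 after rescaling. The B-type cyclin cyb-2.1 (Y43E12A.1) was at 0.877 and 2.02 RPM against 26.9 to 49.0 RPM (-3.82, adjusted p = 1.4e-11), and him-5 (-2.72) and the synaptonemal complex genes syp-1 (-2.23) and syp-2 (-1.99) were lower on both scales. Genes of germ granules and small RNA pathways were also near the table on the RPM scale, with 29 of 33 lower and 0 higher (median -1.11), and 8 lower and 11 higher after rescaling (median 0.06). hrde-1 (C16C10.3), the nuclear Argonaute of inherited silencing, was at 185 and 160 RPM in L4 and 509 to 752 RPM in adults (-1.79, SE 0.28, adjusted p = 2.2e-06). The RNAi Argonaute rde-1 (-2.41) and the RNA-dependent RNA polymerase rrf-3 (-2.32) were lower on both scales, and rde-2 (-1.60) as well.

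The smaller lists of the CSR-1 table are set against the 83.5% of all its genes lower on the RPM scale and 40.1% after rescaling. F-box genes had 8 of 8 lower (median -2.39), and 7 lower after rescaling (median -1.34), with fbxc-32 at -3.67 and fbxa-215 at -3.29. BTB and MATH genes had 8 of 9 lower (median -1.63), and 6 lower and 1 higher after rescaling (median -0.84), led by bath-44 (-3.04). Nuclear receptor genes had 10 of 14 lower (median -1.22), which is no larger a share than the 83.5% of all CSR-1 genes, and 7 lower and 1 higher after rescaling (median -0.41). In that list nhr-49, a regulator of fat metabolism, was at -2.87. The sperm gene list had only spe-39 (-2.23) and spe-48 (-0.79) in this table, both lower, and spe-48 changed sign after rescaling (0.24, adjusted p = 0.23). The histone genes his-72 and his-74, both for variants of H3, differed by -0.78 on the RPM scale and by 0.35 and 0.40 after rescaling, where his-74 was higher (adjusted p = 0.015). With experiment as a random effect the calls of spe-48, his-72 and his-74 were lost (adjusted p = 0.11, 0.087 and 0.11).

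Ribosomal protein genes went the other way. Of 18 tested, 15 were higher in L4 and 1 lower, with a median of 0.96 against -1.29 for all genes, and 17 were higher and 0 lower after rescaling (median 2.09). The list summed to 523 and 586 RPM in L4 and to between 268 and 423 RPM in adults, without overlap. Among the mutant libraries, which no test used, alg-1(gk214) and alg-2(ok304) adults reached these L4 levels, at 673 and 528 RPM. The alg-5(tm1163) adults were at 383 RPM and alg-5(ram2) L4 larvae at 490 RPM. rpl-35 (ZK652.4) was at 19.2 and 15.7 RPM in L4 and 3.08 to 8.28 RPM in adults (1.41, SE 0.30, adjusted p = 0.00013), and rpl-30 (1.29) and rpl-27A (1.19) were higher as well. The exception rsl-24D1 (-1.39) is a ribosome assembly gene that the list's prefix rule took in. Among the other CSR-1 genes that were higher, asp-1 (Y39B6A.20), an aspartic protease of the intestine, was at 175 and 123 RPM in L4 and at 13.3, 20.0, 21.7, 27.0, 55.5, 1.43 and 21.5 RPM in the adults in the order given for miR-35-3p (3.05, SE 0.57, adjusted p = 2.4e-05). epi-1 (a laminin alpha chain, 2.22), act-4 (an actin, 1.66), pcyt-2.1 (1.503), vha-12 (a subunit of the vacuolar proton pump, 1.499), eef-1A.1 (a translation elongation factor, 1.41) and Y82E9BR.3 (1.36) were higher on both scales. The mRNAs of the 60 genes called higher had a median of 545 FPKM in wild type L4 (3 libraries, a level per transcript length and library size), against 27.0 FPKM for the 3016 genes called lower and 48.6 FPKM for the 538 not called; no adult mRNA was used here. By the calls after rescaling, the medians were 58.4 FPKM for the 702 genes higher and 22.4 FPKM for the 1448 lower.

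**Figure D4:**
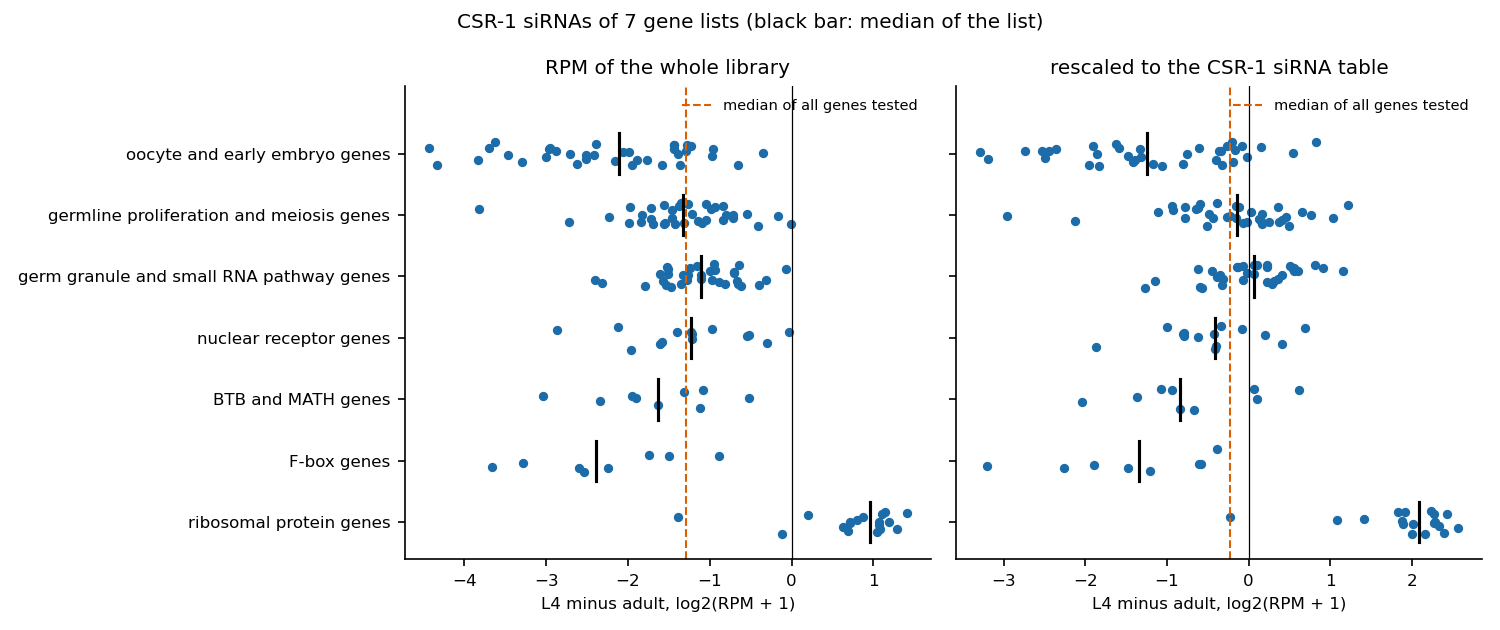
L4 minus adult difference in log2(RPM + 1) of CSR-1 siRNAs (x axis) for the tested genes of 7 lists (rows, 1 point a gene, black bar the median), on the RPM scale and rescaled to the CSR-1 siRNA table; the dashed line is the median of all 3614 genes. The median of oocyte and early embryo genes lies to the left of the dashed line on both scales and that of ribosomal protein genes to the right, with single genes of each across the line on the RPM scale.

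The genes with higher siRNAs also differed within the adults. In wild type adult 3, asp-1 (1.43 RPM), act-4 (4.23 RPM) and eef-1A.1 (39.0 RPM) were at their lowest of the 9 libraries, and the vitellogenin genes vit-1 (4.202 RPM) and vit-2 (3.34 RPM), for yolk proteins, were below their L4 levels. In the other 6 adults vit-1 was at 58.2 to 114 RPM and vit-2 at 124 to 231 RPM, against 10.8 and 16.4 RPM and 21.4 and 33.7 RPM in L4. Both were called lower in L4 on the RPM scale only (-2.02, adjusted p = 0.0041, and -1.95, adjusted p = 0.023), and the stages overlap because of that 1 library. Summed over both vit genes, wild type adult 3 held 7.54 RPM and the HA::ALG-5 input of the same experiment 182 RPM. The alg-5(tm1163) adults, also of experiment 3 and used in no test, held 5.47 RPM. The alg-1(gk214) and alg-2(ok304) adults of experiment 2 held 138 and 483 RPM. Genotype differs there as well. The part of wild type adult 3 in the results was not tested.

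Of 2432 Mutator targets tested, 1131 were lower in L4 (46.5%) and 156 higher (6.41%). Rescaled to the Mutator table, 1031 were lower (42.4%) and 686 higher (28.2%), and the median difference was -0.44 on the RPM scale and -0.16 on the other. With experiment as a random effect 1113 were called, and 1325 with wild type libraries alone.

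The Mutator table held a group of targets that were far lower in L4. In all, 113 were lower by over 4 on the log2 scale, 106 of them genes. Together they held 0.204% and 0.220% of Mutator siRNA RPM in the L4 libraries and 5.61% to 7.54% in the adults, a description, since the group was taken from these values. K08B4.5 was at 50.4 and 52.1 RPM in L4 and at 3907, 4227, 3793, 3220, 3280, 3030 and 2602 RPM in the adults in the order given for miR-35-3p (-6.02, SE 0.18, adjusted p = 6.7e-11). M02F4.1 was at 22.1 and 20.2 RPM against 1102 to 1784 RPM (-6.05, SE 0.19, adjusted p = 6.7e-11) and C32B5.6 at 10.2 and 8.37 RPM against 483 to 830 RPM (-6.02). No adult library of any strain overlapped L4 for these 3. jmjd-3.1 (F18E9.5), a demethylase of histone H3, was at 14.7 and 18.2 RPM against 623 to 947 RPM (-5.48). skr-21 (K08H2.1), related to the Skp1 subunit of ubiquitin ligases, was at 4.65 and 5.56 RPM against 238 to 362 RPM (-5.63). The mRNAs of the 106 genes had a median of 0.0706 FPKM in wild type L4. Over all tested Mutator genes, called or not, the median was 8.06 FPKM for differences from -4 to -2, 7.77 FPKM from -2 to 0 and 1.94 FPKM above 0.

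F-box genes, for substrate adaptors of ubiquitin ligases, were the largest gene list in this table. Of 96 tested, 59 were lower and 9 higher (median -1.11 against -0.44 for all targets), and 55 were lower and 17 higher after rescaling. fbxb-46 (K05F6.9) was at 0.530 and 0.781 RPM in L4 and 70.2 to 106 RPM in adults (-5.72, SE 0.19, adjusted p = 7.5e-11). fbxb-49 (-5.56), fbxb-45 (-5.24) and fbxa-97 (-5.17) were similar, while fbxa-40 (Y59E1A.1) was higher in L4, at 230 and 215 RPM against 28.2 to 105 RPM (2.14, adjusted p = 0.0006). Nuclear receptor genes had 16 of 20 lower and 1 higher (median -1.20), with nhr-204 at -5.04, nhr-3 at -4.48, nhr-1 at -4.19 and nhr-58 at -3.82, and nhr-229 higher by 2.02. BTB and MATH genes, which also encode ubiquitin ligase adaptors, had 18 of 37 lower and 0 higher on the RPM scale (median -0.51) and 17 lower and 6 higher after rescaling (median -0.23). That is close to the 46.5% lower and the median of -0.44 over all Mutator targets. They were led by bath-31 (-4.98), btb-11 (-3.55) and bath-41 (-3.36).

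Of 30 chemoreceptor genes tested, 11 were lower and 3 higher on the RPM scale (median -0.09), against 46.5% lower, 6.41% higher and a median of -0.44 over all Mutator targets, and 9 were lower and 13 higher after rescaling. srh-34 (-5.07), srxa-15 (-4.47), srg-34 (-4.09) and srxa-14 (-3.84) were each under 2 RPM in L4. Histone genes had 6 of 11 lower and 0 higher (median -0.77), and 6 lower and 1 higher after rescaling, led by his-35 (-1.69) and his-37 (-1.63), both of the core histones, whereas his-24, the linker histone H1, was at 2869 RPM in L4 and 2237 RPM in adults as means and passed only after rescaling, where it was higher. Collagen genes, for the cuticle, had 4 of 10 higher and 0 lower (median 0.74), and 6 higher after rescaling. The list summed to 2068 RPM in the GFP::ALG-5 input but to 924 RPM in wild type L4, against 908 to 1494 RPM in adults. As a sum the stages therefore overlapped, and only the tagged L4 library lay above the adults. col-186 was at 42.8 and 29.2 RPM in L4 and 9.22 to 16.8 RPM in adults (1.30, SE 0.23, adjusted p = 0.00028), and col-154 (1.00), col-155 (0.97) and col-157 (0.83) were higher on both scales. In the small RNA pathway list, rde-11 (B0564.11), an RNAi factor, was at 96.3 and 82.2 RPM against 298 to 401 RPM (-1.99) and rrf-2 differed by -1.26. The sperm genes fer-1 (0.98), spe-47 (0.12) and spe-41 (-0.29) did not pass, and spe-15 was lower (-0.94, adjusted p = 0.00077). rpl-11.2 (1.47), the ribosomal protein gene of this table, was higher in L4, as in the CSR-1 list.

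Transposon entries lay close together. Of 191 transposon entries 8 were higher and 14 lower, with a median of 0.19 and quartiles at 0.17 and 0.26. After rescaling 154 were higher and 12 lower. They made up 9.14% and 9.18% of Mutator siRNA RPM in L4 and 5.47% to 6.34% in adults. The 194 entries that are predicted coding sequences with no gene match had a median of 0.22, the 178 pseudogenes -0.006 and the 1869 tested genes -0.75. The predicted coding sequences were much like the transposons, with 151 higher and 13 lower after rescaling. They made up 11.9% to 12.5% of Mutator siRNA RPM in L4 and 7.43% to 8.79% in adults. Of all tested Mutator targets, 253 had a partner within 2% of their value in each of the 9 libraries, which is a sign of shared reads, so the entries of these groups are not separate measurements.

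The Mutator siRNAs that were highest in L4 relative to adults were those of the pseudogene Y17D7C.6, at 309 and 252 RPM against 19.9 to 63.1 RPM (2.86, SE 0.37, adjusted p = 1.0e-05), the pseudogene Y105C5A.1271 (2.30) and acdh-1 (C55B7.4), an acyl-CoA dehydrogenase. acdh-1 was at 65.7 and 59.8 RPM against 9.66 to 14.1 RPM (2.28, SE 0.18, adjusted p = 7.4e-08). mlt-11 (W01F3.3), a protease inhibitor of moulting, was at 44.6 and 48.3 RPM against 7.87 to 16.02 RPM (1.90). B0457.4 (2.24), fbxa-40 and nhr-229 varied in step with each other: all 3 were highest among adults in the ALG-1::HA::ALG-2 input and next highest in the HA::ALG-2 input. eri-12 was higher by 1.81.

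**Figure D5:**
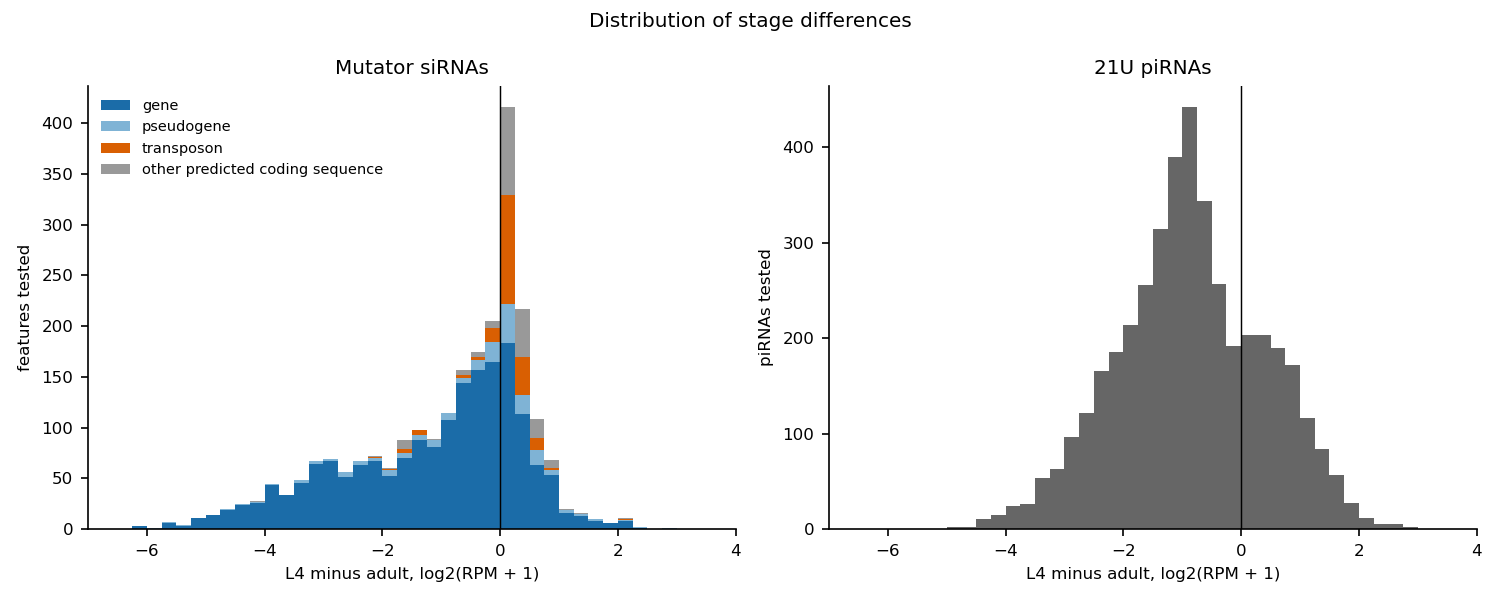
Number of tested features (y axis) by their L4 minus adult difference in log2(RPM + 1) (x axis) for Mutator siRNAs, stacked by kind of target, and for 21U piRNAs. Mutator genes reach down to -6.05 in a long left tail that holds no transposon below -4, while transposons pile up just above 0; most piRNAs lie left of 0, and the highest is at 2.82.

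Mutant libraries, which no fit used, gave the stage difference in other animals: 1 L4 library of alg-5(ram2), from experiment 4, and adult libraries of alg-1(gk214) and alg-2(ok304), both from experiment 2, and of alg-5(tm1163), from experiment 3. Genotype differs between their stages, so their values are only set beside the others. Of the called features, 109 of 111 miRNAs, 2572 of 2634 piRNAs, 3056 of 3076 CSR-1 genes and 1194 of 1287 Mutator targets had the same sign there. The share over all tested features is not given, so these counts are not separate support. Class sums of miRNAs, piRNAs and CSR-1 siRNAs differed the same way in the mutants, and signs in RPM move with them. CSR-1 siRNAs summed to 58012 RPM in alg-5(ram2) and to between 90400 and 203105 RPM in the mutant adults. The alg-5(ram2) library also shares its experiment with both L4 libraries. The alg-5(ram2) library was at 299 RPM for miR-35-3p, 97.8 RPM for let-7-3p, 63.4 RPM for K08B4.5 and 7.68 RPM for egg-5, each on the L4 side of every adult library compared above. alg-5(tm1163) adults were at 6339, 1.97, 2917 and 405 RPM for the same 4 features. alg-1(gk214) adults were at 1534, 172, 946 and 100.9 RPM, and alg-2(ok304) adults at 809, 15.6, 2285 and 167 RPM. In these 2 mutant libraries miR-35-3p was thus between the L4 and adult libraries that are not mutants, and let-7-3p of alg-1(gk214) was above both L4 libraries.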

How the data were processed

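Small RNA levels were deposited by the authors as RPM in 4 tables, 1 for each class, and mRNA levels as FPKM. The aligner and genome build of the small RNA tables are not given in the sources used here. The lowest RPM step of a library was taken as 1 read and gave its depth. Within 0.02 of a read, the share of whole values ran between 94.1% and 96.9% per library for miRNAs, between 99.1% and 99.6% for piRNAs and between 3.41% and 67.4% for siRNAs, which hold fractions of reads. Copies of a mature miRNA were summed (375 entries to 368), and 27 genes stand in both siRNA tables.

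Features of at least 1 RPM in at least 2 of the 9 libraries were tested as log2(RPM + 1) with limma 3.58.1 (R 4.3.3; mean-variance trend, stage as the only term), with Benjamini-Hochberg adjustment per table and a threshold of 0.05. Prior degrees of freedom were 5.32 to 23.6 beside 7 residual ones. edgeR 4.0.16 (quasi-likelihood) on the recovered reads of miRNAs and piRNAs was an alternative. The procedure was run on simulated data, with noise drawn separately for each library. The simulation held no spread shared within an experiment, whereas the fitted correlation within experiments was 0.44 to 0.64. It therefore cannot show how calls behave under that spread. Its minimum for recovered changes was not applied to piRNAs. Class sums were compared by an exact permutation test over 36 splits. The members, gene lists and tests were chosen with earlier results of these data known.

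The miRNAs named are the 10 largest calls each way with at least 10 RPM in 1 stage and no overlap, the tested arms of the let-7, lin-4 and mir-35 families, and up to 4 of each other list. piRNAs are the 3 largest each way. siRNA targets are the 8 largest each way per table, at most 2 of a gene class and 3 with a sequence name only, and up to 4 called genes per list. Members of a list that did not pass, and the hairpins given for arm shares, were chosen after their values were seen. Serpin genes that the chemoreceptor prefix had taken in were removed after their values were seen.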

Additional observations from a re-analysis of the deposited data

Results flagged for a closer look

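Dixon's ratio, the gap of the outermost library over the range, was taken on the RPM of the 7 adults with a limit of 0.568. Its chance rate of about 1 in 20 holds only for independent, normal values. Libraries that share an experiment, related features and values in RPM need not meet that, so no excess over chance is read from the count. In 19 of 165 results 1 adult library stood apart from the other 6. In 9 of them it was wild type adult 2, always as the highest adult: miR-52-5p at 16940 RPM, miR-56-3p at 3044 RPM, miR-53-5p at 1676 RPM, miR-791-3p at 32.1 RPM, lin-4-5p at 2374 RPM, miR-237-5p at 2927 RPM, miR-228-5p at 3479 RPM, miR-34-3p at 1867 RPM and the CSR-1 siRNAs of pcyt-2.1 at 64.7 RPM.

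In 7 it was wild type adult 3, again as the highest, all for CSR-1 siRNAs: mesp-1 at 214 RPM, rrf-3 at 142 RPM, fbxa-215 at 60.1 RPM, fbxa-145 at 17.4 RPM, bath-44 at 37.4 RPM, spop-1 at 26.5 RPM and nhr-49 at 39.0 RPM. That library also had the highest CSR-1 siRNA sum, 202041 RPM. The HA::ALG-5 input was highest for miR-41-5p (274 RPM) and miR-42-5p (3.58 RPM), and the ALG-1::HA::ALG-2 input for miR-237-3p (17.7 RPM).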

How the results depend on the processing

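Rescaling to the own table gave 71 called miRNAs in place of 111. Among the named features alone, it turned the sign of 4 called ones, miR-58-3p (-0.0031), spe-48 (0.24), his-74 (0.40) and his-72 (0.35). Over the whole CSR-1 table, 214 genes were called in opposite directions on the 2 scales. Rescaling also turned the sign of several miRNAs called on neither scale, let-7-5p, miR-48-5p, miR-84-5p and miR-241-5p among them. Experiment as a random effect gave 59 miRNAs and 1240 piRNAs, 1 mean per experiment 14 and 326, and wild type libraries alone 10 and 206, with 771 CSR-1 genes and a log2 difference of the miRNA sum of 0.56. A minimum of 5 RPM gave 1243 piRNAs, since fewer were tested. edgeR gave 43 miRNAs higher and 47 lower, and 1191 piRNAs higher and 1714 lower. It was not run on siRNAs, whose values are not whole reads. With 1 mean per experiment the split was 6 to 8 for miRNAs and 9 to 317 for piRNAs, and with wild type alone 4 to 6 and 4 to 202. Leaving out 1 library at a time gave 57 to 135 miRNAs, 1235 to 2990 piRNAs, 2366 to 3142 CSR-1 genes and 1138 to 1305 Mutator targets. For miRNAs the count was 57 without the GFP::ALG-5 input and 70 without wild type L4, and for piRNAs 1235 and 1333; the lone L4 library is then assumed to vary like the adults. Over the named features and all alternatives, 3188 results stayed on their side of the threshold, though those that never passed could change sign, 232 no longer passed, 27 newly passed and 4 changed sign as called values. No paired analysis was possible because the replicate numbers were given in accession order and pair no libraries. Depth limits the low features of wild type adult 2 most.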
